A study of Rattus norvegicus with 6 samples.

Results

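The miR-181 family was followed in rat left ventricle after myocardial infarction (MI) through 6 of its mature strands: rno-miR-181a-5p, rno-miR-181b-5p, rno-miR-181c-5p, rno-miR-181d-5p, rno-miR-181c-3p and rno-miR-181b-1-3p, written below without the rat prefix. They were taken by name from the 758 rat miRNAs of a single-colour Agilent array, all 6 are on the array, and all 6 passed the filter on dim signal. The strands were selected on their family name with their log2 fold changes between MI and control arrays, and which of them passed the test, already known, so those differences are given as a description, with no test. The array also carries the 4 remaining strands of the same precursors, miR-181a-1-3p, miR-181a-2-3p, miR-181b-2-3p and miR-181d-3p, which are set beside them.

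The 3 MI samples were myocardium of male rats aged 8 weeks, taken 24 h after surgical ligation of the left coronary artery. The 3 control samples were myocardium of male rats of the same age that had the same operation without the ligature, and their labels give a time of 0 h, so ligation and time after surgery cannot be told apart. Strain and genotype are not given in the sources used here, the labels do not say how infarcted and spared muscle were divided, and the labels do not name the animal behind each sample, so the errors measure the spread between these samples, which may be technical. The heart miRNA miR-208a-3p was above background on all 6 arrays, with a mean log2 signal of 11.22 in MI and 11.43 in control samples. The arrays detected 445 to 468 miRNAs in MI samples and 447 to 472 in controls, and the number of arrays limits the precision.

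MicroRNAs are cut from hairpin precursors, and of the 2 arms of a hairpin 1 usually becomes the guide strand that leads Argonaute to messenger RNAs, mainly through the seed at its 5′ end, while the other, the passenger, is mostly degraded. In the miR-181 family the 5p arm is the usual guide. The family is known for its part in lymphocyte development and T cell receptor sensitivity, miR-181b for restraining NF-kB signalling in endothelium, and miR-181c for acting inside mitochondria of rat cardiomyocytes. The family is encoded in 3 clusters of 2 hairpins each: miR-181a-1 with miR-181b-1, miR-181a-2 with miR-181b-2, and miR-181c with miR-181d.

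The mature sequences show which strands can share targets and which differ by so little that probes may not separate them. RefSeq (build GRCr8) held 6 of the 6 strands and 3 of the 4 others, and in each the seed, bases 2 to 8, is in capitals.
miR-181a-5p: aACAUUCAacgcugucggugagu
miR-181b-5p: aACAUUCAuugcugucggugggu
miR-181c-5p: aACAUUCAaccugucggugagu
miR-181d-5p: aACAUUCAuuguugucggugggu
miR-181c-3p: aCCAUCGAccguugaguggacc
miR-181a-1-3p: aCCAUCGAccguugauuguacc
miR-181b-1-3p: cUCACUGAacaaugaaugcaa
The 4 guide strands have 1 seed in common, ACAUUCA, and among the 693 mature rat miRNA names in the table no other carries it. Outside the seed, miR-181b-5p and miR-181d-5p differ by 1 substitution, C12U, counted from the 5′ end of miR-181b-5p. MiR-181a-5p and miR-181c-5p differ by 1 missing base in miR-181c-5p, with 22 of 23 aligned positions identical. The widest gap between guides is that of miR-181c-5p and miR-181d-5p, the pair made from neighbouring hairpins, with 18 of 23 aligned positions identical. The passengers are less uniform: miR-181c-3p shares its seed, CCAUCGA, with miR-181a-1-3p and differs from it by G16U and G19U, counted from the 5′ end of miR-181c-3p, while the seed of miR-181b-1-3p, UCACUGA, is carried by no other name in the table. The probe sequences were not used here, and how far probes for the near-identical guides cross-react was not tested.

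In the genome, miR-181b-1-3p (GRCr8 chr13:52037303-52037323) and miR-181a-1-3p (chr13:52037121-52037142) lie on the plus strand within the span of a long noncoding RNA gene, LOC108352541, beside Ptprc, which encodes the leukocyte surface protein CD45. MiR-181c-5p (chr19:40888314-40888335), miR-181c-3p (chr19:40888353-40888374) and miR-181d-5p (chr19:40888484-40888506) lie on the plus strand between annotated genes, with Nanos3 as the neighbour of the miR-181d hairpin. MiR-181a-5p is listed at 2 places, chr13:52037081-52037103 and, within the span of Nr6a1, chr3:43025601-43025623, so a signal for it cannot be assigned to 1 of the clusters. Both strands of 1 hairpin are among the strands described, that of miR-181c, whose guide (bases 24 to 45) and passenger (bases 63 to 84) are in capitals below.
Mir181c hairpin: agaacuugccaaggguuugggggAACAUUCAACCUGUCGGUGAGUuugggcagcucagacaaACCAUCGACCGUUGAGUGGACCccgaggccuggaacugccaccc

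The strands did not differ alike between MI and control ventricle. The guides of the chromosome 19 cluster, miR-181c-5p and miR-181d-5p, were 1.23-fold and 1.19-fold lower in MI than in control ventricle, whereas miR-181a-5p and miR-181b-5p, whose signals may come from the other clusters, had log2 fold changes of -0.03 and -0.06, each smaller than its standard error. The passenger miR-181b-1-3p was 1.54-fold lower, on a signal near background, and the passenger miR-181c-3p was level. In limma over the 449 miRNAs tested, miR-181b-1-3p was the 1 of the 6 strands past an adjusted p of 0.05, where 2.45% of all tested miRNAs passed, 1.78% higher (8) and 0.668% lower (3); since this contrast was used to pick the strands, nothing is read from that count. With each array scaled to the 75th percentile of all probes in place of the detected ones, the split over all miRNAs was 5 higher and 5 lower. The MI and control values did not overlap for 3 of the 6 strands, all lower in MI, where 20.7% of tested miRNAs did not overlap, 10.9% higher and 9.8% lower. At an unadjusted p under 0.05 stood 13.6% of the tested miRNAs, 8.46% higher and 5.12% lower.

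**Figure D1:**
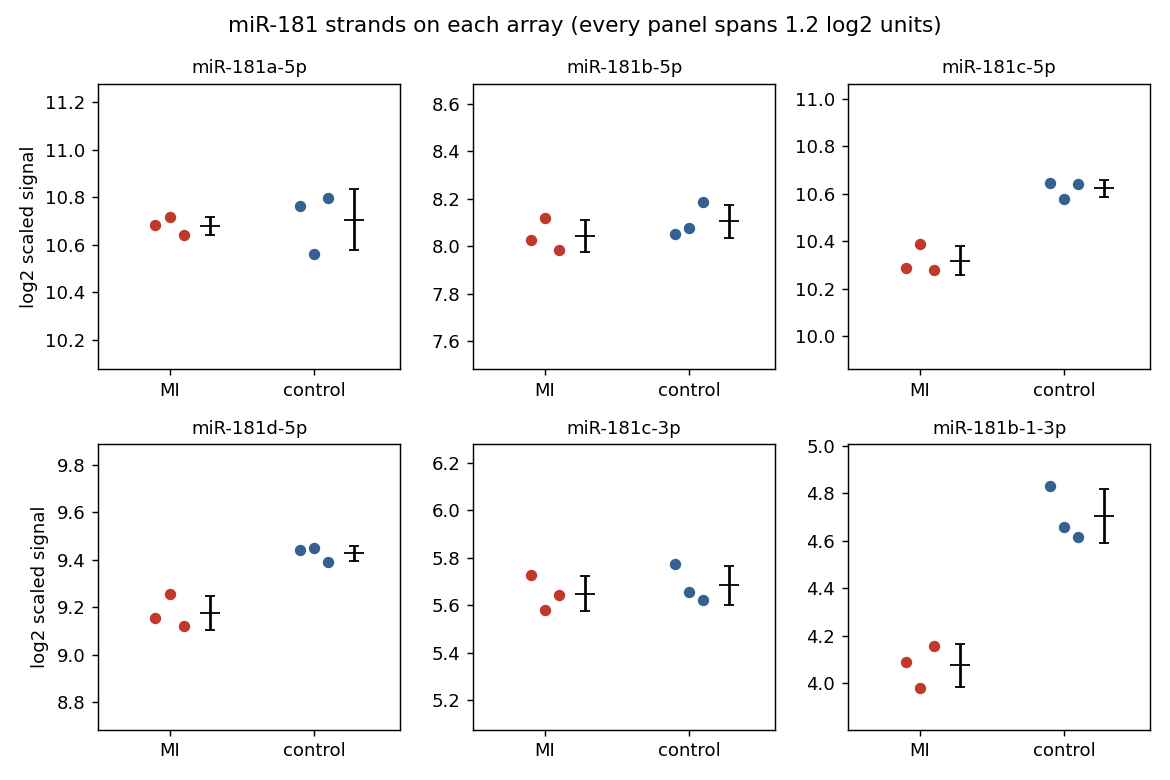
Signal of each miR-181 strand on every array, as log2 of the scaled signal, with MI arrays left and control arrays right; bars give the mean and SD of 3 arrays. MI and control points are separate for miR-181c-5p, miR-181d-5p and miR-181b-1-3p and overlap for the other strands.

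MiR-181a-5p, the guide best known for tuning T cell receptor signalling, had scaled signals of 1643, 1683 and 1595 on the 3 MI arrays, against 1735, 1509 and 1777 on the 3 control arrays. The MI arrays fell inside the range of the controls, whose spread came from control replicate 2, the lowest array of the set. The log2 fold change was -0.03 ± 0.09 (SE, n = 3 per group). MiR-181b-5p, the guide tied to NF-kB signalling in endothelium, had signals of 261, 278 and 253 on MI arrays, against 265, 270 and 291 on control arrays. MI replicate 2 stood above 2 of the 3 controls, and the groups overlapped. Its log2 fold change was -0.06 ± 0.07 (SE, n = 3 per group). Each strand was read by 2 probes of 8 spots, and for both miRNAs the probes gave the same picture: -0.03 and -0.02 for miR-181a-5p, -0.05 and -0.07 for miR-181b-5p, with all 8 spots of every probe above background on every array.

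MiR-181c-5p, the guide found in heart mitochondria, had scaled signals of 1250, 1341 and 1244 on MI arrays, against 1603, 1531 and 1597 on control arrays. The highest MI array lay 0.19 below the lowest control array on the log2 scale, and the groups did not overlap. Its log2 fold change was -0.30 ± 0.07 (SE, n = 3 per group). Its cluster mate miR-181d-5p had signals of 569, 612 and 556 on MI arrays, against 694, 700 and 670 on control arrays. Here too the groups were separate, by 0.13 on the log2 scale, and MI replicate 2 was again the highest of the MI arrays. The log2 fold change of miR-181d-5p was -0.25 ± 0.07 (SE, n = 3 per group). The 2 probes of miR-181c-5p stood at -0.28 and -0.33 and those of miR-181d-5p at -0.22 and -0.26, so in each guide both probes were lower by similar amounts. In these bulk samples, fewer cells that make a miRNA and less of it per cell cannot be told apart.

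The passengers were dimmer. MiR-181b-1-3p had scaled signals of 17.0, 15.8 and 17.9 on MI arrays, against 28.5, 25.3 and 24.5 on control arrays. The groups were separate by 0.46 on the log2 scale, the widest gap among the 6 strands. Its log2 fold change was -0.63 ± 0.09 (SE, n = 3 per group). Detection of this strand rested on 1 probe, A_26_P00003417. That probe was well above background on 2 of 3 MI arrays and 3 of 3 control arrays. On the MI arrays 4, 6 and 7 of its 8 spots were above background, and 8 of 8 on each control array. The strand's other probe, A_26_P00003416, was above background on 0 of 6 arrays. Its signals, 5.37, 4.13 and 5.86 on MI and 9.46, 7.95 and 8.20 on control arrays, are nevertheless summed into the strand's values. The -0.63 and the gap of 0.46 therefore include it. The first probe's signals were 11.7, 11.6 and 12.0 on MI arrays and 19.0, 17.3 and 16.3 on control arrays, where the lowest signal of any detected probe was 9.17 and the floor set before taking logarithms was 5.15. The first probe alone had a log2 fold change of -0.57; the second stood too near the floor for a fold of its own to be read.

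MiR-181c-3p, the passenger of miR-181c, had scaled signals of 52.9, 47.8 and 49.99 on MI arrays, against 54.7, 50.4 and 49.2 on control arrays. The groups overlapped, and the log2 fold change was -0.03 ± 0.08 (SE, n = 3 per group). The small net difference joined probes of opposite sign, 0.13 for A_26_P00003192 and -0.14 for A_26_P00003193, although both had 8 of 8 spots above background on every array. The strand beside it in sequence, miR-181a-1-3p, behaved otherwise: its signals were 136, 137 and 133 on MI arrays, against 174, 155 and 168 on control arrays. These groups were separate, and its log2 fold change was -0.29 ± 0.07 (SE, n = 3 per group), with probes at -0.33 and -0.26.

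The other 3 strands were not well above background on any array. MiR-181a-2-3p and miR-181b-2-3p, the passengers of the chromosome 3 cluster, had no probe above 4.46 in scaled signal and stood at the floor on 6 of 6 arrays. MiR-181d-3p had signals of 6.91, 10.3 and 11.6 on MI arrays, against 14.6, 12.0 and 13.9 on control arrays. The scanner software's own flag counted miR-181d-3p as detected on 1 of 3 MI arrays and 3 of 3 control arrays, and no fold is given for it. Of the passengers, those of the chromosome 13 cluster and miR-181c-3p were thus the ones above background. MiR-3570, read from the strand opposite miR-181a-1-3p at the same position, was above background on 0 of 6 arrays.

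**Figure D2:**
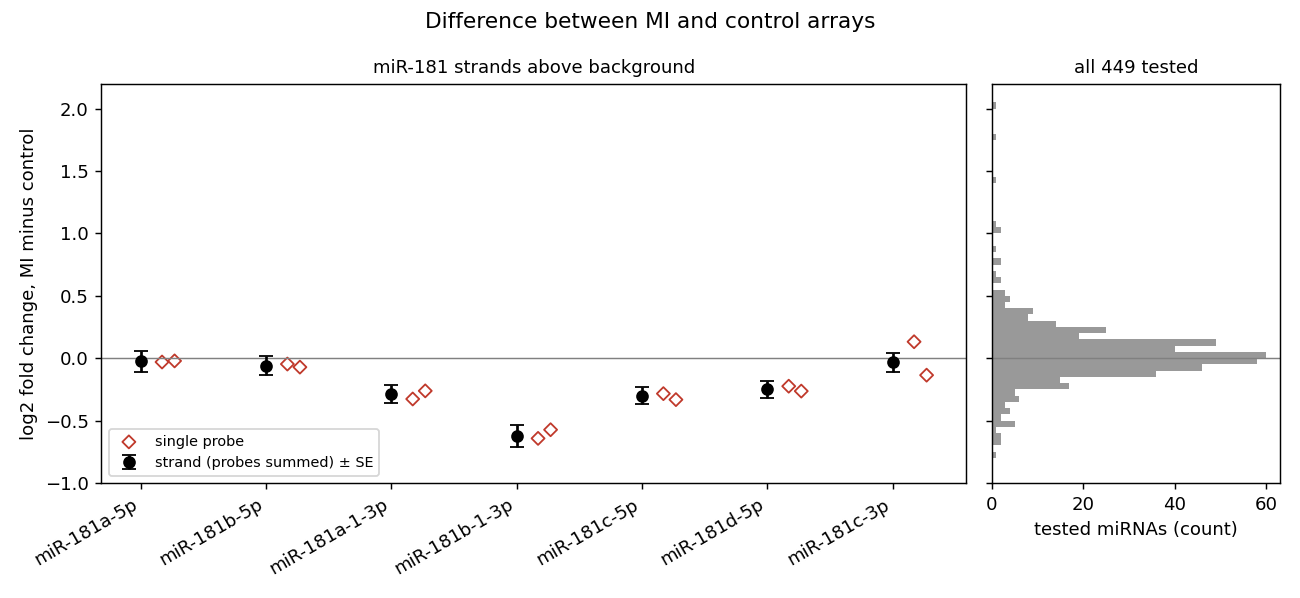
Log2 fold change, MI minus control, of the miR-181 strands above background (left; black points with SE are the summed probes, red diamonds the single probes) beside a histogram of all 449 tested miRNAs (right). MiR-181b-1-3p sits lowest at -0.63. Its lower diamond, at -0.64, is probe A_26_P00003416, which was above background on 0 of 6 arrays and too near the floor to be read. MiR-181a-1-3p, miR-181c-5p and miR-181d-5p lie between -0.25 and -0.30, and the 2 probes of miR-181c-3p fall on either side of 0.

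Ratios of 2 strands within an array do not depend on the scaling between arrays, and only their shift between groups was read. Each shift is the difference between 2 log2 fold changes already given above, so the ratios here and below describe the same differences again. How often ratios of other miRNA pairs do not overlap between groups was not counted, so nothing is read from the lack of overlap. The log2 ratio of miR-181b-1-3p to miR-181b-5p averaged -3.97 ± 0.16 in MI and -3.40 ± 0.17 in control samples (SD, n = 3 each), a shift of -0.57 with no overlap. That ratio sums in the probe above background on no array and was not measured above background on MI replicate 1, and with normexp its shift was -0.017. In the neighbouring hairpin the ratio of miR-181a-1-3p to miR-181a-5p averaged -3.60 ± 0.01 in MI and -3.33 ± 0.06 in controls (SD, n = 3 each), a shift of -0.26, and of -0.11 with normexp. For miR-181c the sign was the opposite: the ratio of miR-181c-3p to miR-181c-5p averaged -4.67 ± 0.13 in MI and -4.94 ± 0.08 in controls (SD, n = 3 each), a shift of 0.27, and of 0.31 with normexp. The guide was lower, and the passenger was level as the sum of 2 probes that stood at 0.13 and -0.14. Normexp adds an offset of 50, near the scaled signals of miR-181c-3p itself, 47.8 to 54.7. The shift of 0.31 therefore says little about the passenger. Since miR-181a-5p and miR-181b-5p also come from the chromosome 3 cluster, their ratios mix 2 hairpins, while both strands of miR-181c are listed only on chromosome 19. How far the miR-181c probes also read the similar miR-181a-5p and miR-181a-1-3p was not tested.

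Between guides, the ratio of miR-181c-5p to miR-181a-5p averaged -0.36 ± 0.03 in MI and -0.08 ± 0.09 in controls (SD, n = 3 each), a shift of -0.28. The ratio of miR-181d-5p to miR-181b-5p, the pair that differs by C12U, averaged 1.13 ± 0.01 in MI and 1.32 ± 0.10 in controls (SD, n = 3 each), a shift of -0.19. In both pairs the groups did not overlap, in the second by a narrow gap, with MI arrays up to 1.138 and the lowest control array at 1.204. Within clusters, the ratio of miR-181c-5p to miR-181d-5p shifted by -0.05 and that of miR-181a-5p to miR-181b-5p by 0.04, with overlapping groups in each case. Between the chromosome 13 passengers, the ratio of miR-181b-1-3p to miR-181a-1-3p shifted by -0.34 without overlap, and by 0.10 with normexp. For miR-181b-1-3p it again includes MI replicate 1, where that strand was not above background.

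**Figure D3:**
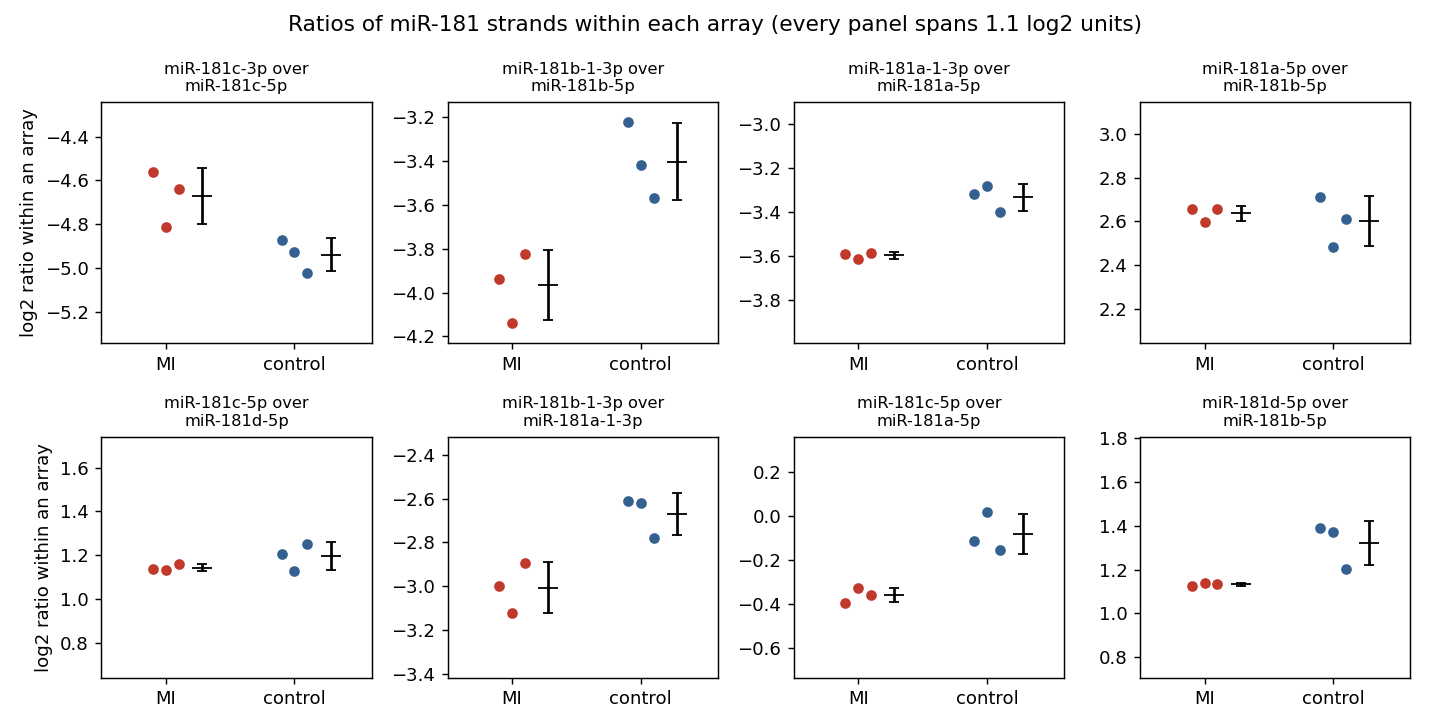
Log2 ratio of 2 miR-181 strands within each array, with MI arrays left and control arrays right; bars give the mean and SD of 3 arrays. The ratios of chromosome 13 passengers to guides and of miR-181c or miR-181d guides to miR-181a or miR-181b guides are lower in MI, that of miR-181c-3p to miR-181c-5p is higher, and the 2 ratios of guides from 1 cluster overlap. The ratio of miR-181b-1-3p to miR-181a-1-3p is also lower in MI.

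The arrays carry header codes of 2 kinds, code 1 for MI replicate 1 and the 3 controls and code 2 for MI replicates 2 and 3. Within the 4 arrays of code 1, the log2 fold changes were -0.33 for miR-181c-5p, -0.27 for miR-181d-5p, -0.61 for miR-181b-1-3p, -0.02 for miR-181a-5p, -0.08 for miR-181b-5p and 0.04 for miR-181c-3p. They rest on 1 MI array, and code 2 holds no control. Control replicate 3 was scanned apart from the other arrays; with the scan as a block the same strands, in that order, stood at -0.29, -0.27, -0.67, 0.02, -0.02 and -0.07, so the signs of miR-181a-5p and miR-181c-3p were not settled by these arrays. MiR-181b-1-3p depended most on how dim signal was handled: its log2 fold change was -1.23 in the software's total signal, -1.10 in the authors' processed values, -0.34 with a floor 4 times as high, and -0.039 with normexp, whose added offset of 50 exceeds the strand's own signal; with normexp it no longer passed an adjusted p of 0.05 and miR-181c-5p was the 1 strand that did. Without control replicate 1, 2 or 3, or without MI replicate 1 or 2, 0 of the 6 strands passed an adjusted p of 0.05 in limma, with 3 at an unadjusted p under 0.05 each time, where 8.24% to 15.4% of all tested miRNAs were.

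**Figure D4:**
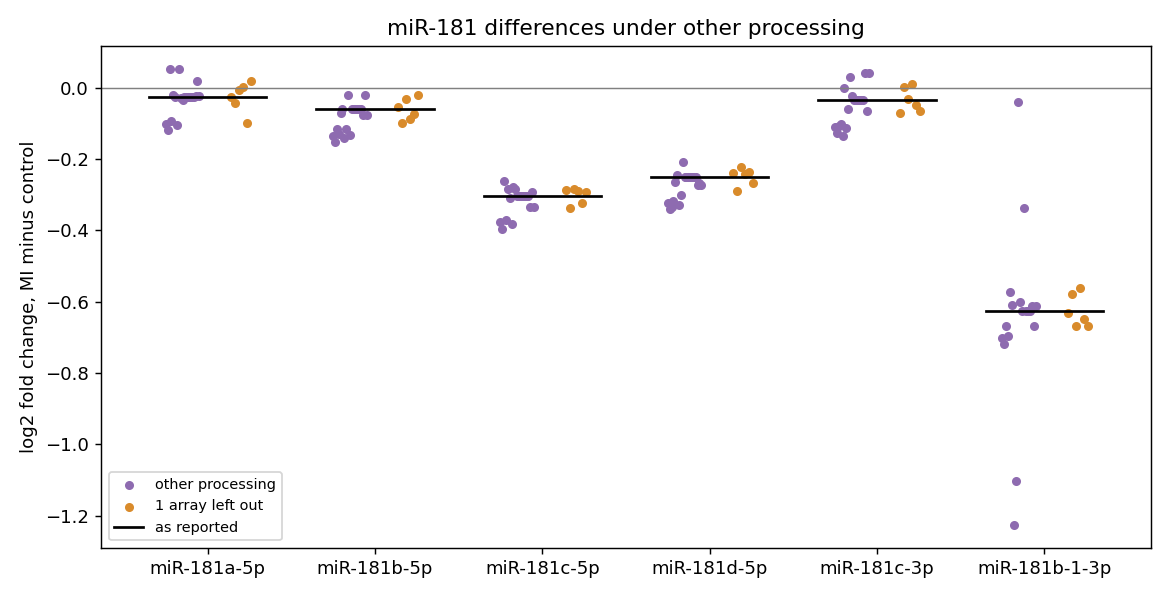
Log2 fold change, MI minus control, of each miR-181 strand as reported (black line), under other processing (purple) and with 1 array left out (orange). MiR-181c-5p and miR-181d-5p stay below -0.20 throughout, miR-181a-5p and miR-181c-3p cross 0, and miR-181b-1-3p runs from -1.23 to -0.039.

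Likeness of pattern over the 6 arrays was measured as the root mean square difference between log2 signals after removing each miRNA's mean, against the miR-181 strands and 427 miRNAs outside the family, all detected on all arrays. The measure takes in the difference between groups, so it is a description. The strands nearest to miR-181c-5p were the chromosome 13 passenger miR-181a-1-3p, at 0.04, and its cluster mate miR-181d-5p, at 0.05, with 0 of the 427 nearer than either; outside the family the nearest were miR-30d-3p at 0.06 and miR-30b-3p at 0.07, against a median of 0.21. For miR-181d-5p the nearest outside the family were miR-30e-5p and miR-30d-3p, both at 0.04, and 3 of the 427 were nearer than miR-181c-5p. MiR-181a-5p was nearest to miR-152-3p at 0.04 and miR-127-3p at 0.05, and 15 of the 427 were nearer to it than miR-181b-5p, the nearest miR-181 strand, at 0.07. MiR-181b-5p was nearest to miR-186-5p and miR-872-5p, both at 0.03, and 42 of the 427 were nearer to it than miR-181a-5p. MiR-181c-3p was nearest to miR-324-3p and miR-27a-3p, both at 0.04, and 110 of the 427 were nearer to it than any other miR-181 strand.

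Lists of miRNAs with settings in common with the family were read beside it. Of 7 miRNAs of NF-kB signalling tested, 2 rose and 0 fell in limma over all miRNAs, where 1.78% of all tested miRNAs rose and 0.668% fell. At an unadjusted p under 0.05, 2 were higher and 1 was lower, where 8.46% and 5.12% of all tested miRNAs were. They were miR-146b-5p, a feedback inhibitor of this signalling, at a log2 fold change of 1.79 ± 0.14, and miR-21-5p, at 1.03 ± 0.08 (SE, n = 3 per group). MiR-146a-5p, with the same role as miR-146b-5p, stood at -0.29 ± 0.08, and miR-126a-3p, an endothelial miRNA, at -0.14 ± 0.08. The median of the list was 0.19, against 0.02 over all tested miRNAs and -0.16 over the 6 miR-181 strands. Of the list of miRNAs tied to mitochondrial genes, 0 of 6 tested passed in limma, with 0 at an unadjusted p under 0.05 and a median of -0.07; miR-210-3p, the hypoxia miRNA, stood at -0.20 ± 0.10 and miR-378a-5p at 0.00 ± 0.07.

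Markers of cell types in the ventricle moved as follows beside the miR-181 strands, and their part in the differences was not tested. Of the 3 lymphocyte miRNAs, 3 were lower in MI with groups that did not overlap and 1, miR-342-5p, which was above background on 4 of 6 arrays, fell in limma over all miRNAs, where 9.8% of all tested miRNAs were lower without overlap and 0.668% fell; miR-150-5p stood at -0.21 ± 0.09 and miR-342-3p at -0.17 ± 0.07. The summed signal of the 3 lay between 12.68 and 12.71 in MI and between 12.82 and 13.05 in control samples on the log2 scale. The 4 myeloid and pan-leukocyte miRNAs were all above 0, as were 246 of the 449 tested miRNAs, with 0 of the 4 past an adjusted p of 0.05 in limma. At an unadjusted p under 0.05 stood 1, miR-223-3p at 1.45 ± 0.29, where 8.46% of all tested miRNAs were higher. MiR-142-3p stood at 0.21 ± 0.12. The summed log2 signal of the 4 lay between 13.35 and 14.00 in MI and between 13.04 and 13.27 in controls. The summed log2 signal of the 2 endothelial miRNAs, miR-126a-3p and miR-126a-5p, lay between 16.18 and 16.19 in MI and between 16.22 and 16.42 in controls, also without overlap. The cardiomyocyte, smooth muscle and fibroblast, and erythroid lists overlapped between groups in summed signal. Of the 12 miRNAs in them, 0 passed an adjusted p of 0.05 in limma. At an unadjusted p under 0.05 stood 1, where 13.6% of all tested miRNAs did. That 1 was the cardiomyocyte miRNA miR-208a-3p, at -0.21 ± 0.08, and it was also lower in MI without overlap, as were 9.8% of all tested miRNAs. No defining marker of these cell types was at the floor, and the brain miRNA miR-124-3p and the liver miRNA miR-122-5p, listed as low in heart, had mean log2 signals of 4.05 and 5.35 in MI and 4.34 and 5.06 in controls. MiR-124-3p was above background on 5 of 6 arrays and miR-122-5p on 6. Beside them, miR-181b-1-3p averaged 4.08 in MI and 4.70 in controls, and miR-181c-3p 5.65 and 5.68.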

How the data were processed

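Spot intensity values on a linear scale were deposited as Agilent Feature Extraction 11.0.1.1 output, per the submitters' processing notes, background-subtracted in the processed signal and on a design named for build rn4, per the file headers. A table of log2 values normalized by the authors was also deposited; its medians and upper quartiles are equal on every array, and how it was made is not given in the sources used here. Spots flagged as outliers (8.32% to 9.63% of an array) were dropped before averaging spots to probes. Detection of a probe needed over 50% of its spots well above background. Scaling set the 75th percentile of the 885 probes detected everywhere to 1 level, probes were then summed to miRNAs, and a floor of 5.15 was applied before log2. Testing covered the 449 of 758 miRNAs with detection on every array of either group. Groups came from the sample titles. The fit was limma 3.58.1 (R 4.3.3; lmFit, eBayes, no covariate), adjusted by Benjamini-Hochberg, and its steps were tested on simulated data. The 6 strands, the lists and the alternatives were chosen with earlier results of these data known. Named miRNAs are all strands of miR-181 precursors, the list miRNAs, the first 2 of each cell type list, and the 2 nearest in pattern to each strand; miR-3570 and miR-342-5p were named after their values were seen. Samples with equal replicate numbers were not treated as pairs: their deviations from the group means correlated at 0.12, -0.04 and 0.11.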

Additional observations from a re-analysis of the deposited data

How the results depend on the processing

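The difference of miR-181c-5p, miR-181d-5p and miR-181b-5p was below 0 under all 25 alternatives, and that of miR-181b-1-3p under the 24 that gave it a value; requiring detection on all 6 arrays leaves it out. MiR-181a-5p and miR-181c-3p were below 0 under 20 of 25 each. These counts are not of 25 separate checks. Testing all 758 miRNAs, detection on all 6 arrays, a floor 4 times as low, other eBayes settings and the replicate block left the log2 fold changes unchanged. The higher floor did so for every strand but miR-181b-1-3p. The scan block repeated the values found without control replicate 3, and the header code block those of the code 1 arrays alone. Leaving out 1 array at a time, log2 fold changes ran from -0.10 to 0.02 for miR-181a-5p, -0.10 to -0.02 for miR-181b-5p, -0.34 to -0.28 for miR-181c-5p, -0.07 to 0.01 for miR-181c-3p, -0.29 to -0.22 for miR-181d-5p and -0.67 to -0.56 for miR-181b-1-3p, with 4 to 9 miRNAs higher, 0 to 1 lower and 0 to 1 of the strands past the threshold. With the 75th percentile over all probes, miR-181b-5p, miR-181c-5p and miR-181d-5p stood at -0.14, -0.38 and -0.32, and with median scaling at -0.15, -0.40 and -0.34 and miR-181c-3p at -0.13; in both, 2 strands (miR-181b-1-3p and miR-181c-5p) passed, with 5 miRNAs higher and 5 lower overall. In the software's total signal, miR-181b-5p, miR-181c-5p, miR-181c-3p, miR-181d-5p and miR-181b-1-3p stood at -0.14, -0.38, -0.11, -0.33 and -1.23, with 5 miRNAs higher. Without scaling, miR-181c-5p and miR-181d-5p stood at -0.37 and -0.32, with 1 miRNA lower. Quantile normalization put miR-181d-5p at -0.33, with 5 miRNAs higher and 0 strands past the threshold. The brightest probe put miR-181c-3p at -0.14, outlier spots kept put miR-181b-5p at -0.13, and the authors' values put miR-181b-1-3p at -1.10, with 5 miRNAs higher. Normexp put miR-181b-1-3p at -0.039, where it did not pass and miR-181c-5p did, and a floor 4 times as high put it at -0.34, with 5 miRNAs higher, 1 lower and 0 strands. Testing all 758 miRNAs gave 3 higher and 0 strands, and detection on all 6 arrays gave 1 lower and 0 strands. With the replicate number as a block, 3 miRNAs were higher, 0 lower and 0 strands past the threshold; the numbers share no stated litter or day, and 0 of 6 samples correlated best with its own number. The header code as a block gave 3 higher, 0 lower and 0 strands, its code 1 arrays alone 4, 0 and 0, and the scan as a block 5, 0 and 0. Of the 25 alternatives, 13 had 0 strands past the threshold in limma, with 2 to 3 lower at an unadjusted p under 0.05. In those 13, 14 to 43 of the 433 to 758 tested miRNAs were lower at that unadjusted p. Since the strands were picked with this contrast known, nothing is read from their count. Of the same 25, 9 had 0 lower miRNAs past the threshold, with 14 to 32 lower at an unadjusted p under 0.05. The cause of these changes was not tested, except that normexp's offset and the higher floor exceed or approach the signal of miR-181b-1-3p by construction. Signal over background limits the passengers: miR-181b-1-3p had 1 usable probe.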
